A study of Mus musculus with 2 samples.

Results

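The 54 genes described here were taken by symbol, as a list of the pathway, from the 52550 genes counted in this series. They comprise 19 genes for ATF4, other stress regulators it is tied to, and enzymes and carriers of amino acid supply, 19 genes for cytosolic aminoacyl-tRNA synthetases and 16 genes for mitochondrial ones. RNA was sequenced from RAW264.7, a mouse macrophage-like line transformed by Abelson murine leukaemia virus, grown untreated in 2D or in 3D culture, with 1 library for each. The sources used here do not say by what method cells were kept in 3D, and a single transformed line stands for macrophages in both groups. With 1 library per culture method no difference has a replicate check, no p-value was computed, and the 95% intervals given with ratios cover counting error only. Because the reads carry no molecular identifiers, they cannot be taken as independent molecules.

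ATF4 is a transcription factor whose protein is made when the translation initiation factor eIF2 is phosphorylated, a state known as the integrated stress response. The kinase GCN2 brings it about when uncharged tRNA builds up in amino acid shortage, and PERK does so when unfolded protein loads the endoplasmic reticulum. ATF4 pairs with C/EBP proteins on a composite DNA element and switches on genes for amino acid synthesis, uptake and tRNA charging. Aminoacyl-tRNA synthetases join each amino acid to its tRNA. The cytosol and the mitochondrion mostly use enzymes of separate nuclear genes, whereas Gars and Kars each serve both places and cytosolic phenylalanyl-tRNA synthetase is built of the subunits Farsa and Farsb. Because ATF4 is controlled largely in its translation, mRNA counts do not measure ATF4 protein.

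The composite element is shown first, since it is the DNA sequence through which ATF4 is known to act. It was searched as TGATGNAA on both strands of RefSeq promoter windows of build GRCm38.p6, each running from 250 bases before to 50 after a start site. Of the 54 genes, 43 had a window, and 10 of these (23.3%) held the motif, against 4.51% of 27025 genes with a window and 2.79% of 8721 measured ones. They included Asns, Chac1, Slc7a11, Pycr1 and Trib3 of the amino acid response, and Gars, Iars, Tars and Yars of the cytosolic synthetases. None of 14 mitochondrial synthetase genes with a window held it, nor did any of the 5 serine pathway genes. Cars, Cth, Hars, Hars2, Lars, Nars, Pars2, Rars, Slc7a5, Vars and Wars had no window and were not searched. A match is a description of letters, not a shown binding site, and no match says only that these letters are not in the window. Next come 6 genes with a match before the start site, 5′ to 3′ on the gene's strand, with the motif or its reverse complement in capitals. Of each, 100 bases are given, or 28 where an annotated exon overlaps the longer stretch.
Asns (chr6:7693215-7693242, minus strand): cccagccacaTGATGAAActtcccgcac
Slc7a11 (chr3:50443617-50443716, minus strand): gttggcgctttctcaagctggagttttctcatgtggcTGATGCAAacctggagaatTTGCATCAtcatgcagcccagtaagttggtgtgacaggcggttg
Chac1 (chr2:119351003-119351102, plus strand): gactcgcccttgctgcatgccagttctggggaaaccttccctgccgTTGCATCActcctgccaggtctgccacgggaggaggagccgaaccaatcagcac
Pycr1 (chr11:120643798-120643897, minus strand): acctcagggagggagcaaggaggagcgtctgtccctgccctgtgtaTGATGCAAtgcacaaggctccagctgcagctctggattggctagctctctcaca
Gars (chr6:55037901-55038000, plus strand): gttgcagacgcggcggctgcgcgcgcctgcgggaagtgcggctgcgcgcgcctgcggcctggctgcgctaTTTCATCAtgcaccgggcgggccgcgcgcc
Tars (chr15:11399656-11399683, minus strand): aggagtcccgTTGCATCAgctggttagc

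The motif began 23 bases before the RefSeq start site in Asns, 15 in Tars, 30 in Gars, 103 in Pycr1 and 193 in Chac1. Slc7a11 held 2 copies, 66 and 47 bases before the start, in opposite orientations. In Yars, Iars and Trib3 the motif lay just after the start site, 3, 7 and 14 bases on, and those sites are shown with 10 bases on each side. For contrast the last of these lines gives the 100 bases before the start of Aars2, a mitochondrial synthetase gene, which held no match.
Yars (chr4:129189896-129189923, plus strand): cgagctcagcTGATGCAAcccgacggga
Iars (chr13:49682127-49682154, plus strand): actgtcagtaTTGCATCAcctccagacg
Trib3 (chr2:152344029-152344056, minus strand): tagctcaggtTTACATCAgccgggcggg
Aars2 (chr17:45506732-45506831, plus strand): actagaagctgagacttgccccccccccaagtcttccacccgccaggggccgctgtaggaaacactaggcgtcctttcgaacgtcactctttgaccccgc

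The 2D library had 14371084 counts and the 3D library 16652503. Values are counts per 1000000 after TMM scaling (CPM), ratios are 3D over 2D, and a gene was measured at a mean of at least 1 CPM, which left 11673 genes. All 9 macrophage markers were measured, while markers of T cells, B cells, epithelium, fibroblasts and endothelium summed to at most 40 counts a list in either library. Hepatocyte markers summed to 10 counts in 2D and 311 in 3D, with each of the 6 at 8 counts or fewer in 2D. Cth and Cbs, which liver expresses strongly, had 292 and 36 counts and 8 and 9 counts, and any part of such RNA in their ratios was not tested. In these whole-culture libraries fewer cells of a type and less RNA per cell cannot be told apart. The ratio ran along transcript GC content over all protein-coding genes, so a second value is given beside it, the log2 ratio after a spline fit on mean expression, GC content and exon length across all measured genes (the adjusted log2 ratio, with an all-gene median of 0).

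Under TMM scaling 14 of 19 cytosolic synthetase genes stood higher in 3D and mitochondrial ones spread to both sides. Atf4 itself stood lower, while the other amino acid response genes and the further ATF4 targets and partners lay on both sides. By the size rule used throughout, a ratio of 2-fold or more, 8 of 53 measured members (15.1%) were higher and 4 (7.55%) lower. Over all measured genes the shares were 18.7% higher, 20.8% lower and 39.5% either way, so both of the members' shares lay under the background. Of the 54, only Cbs was not measured. Scaling matters for every direction given: under total counts the all-gene median log2 ratio moved by -0.61 and the members split into 0 higher and 10 lower, and under 23 reference genes it moved by -0.75 with 0 higher and 13 lower. For that reason list medians are stated after subtracting that of all measured genes (the relative median, on the log2 scale).

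**Figure D1:**
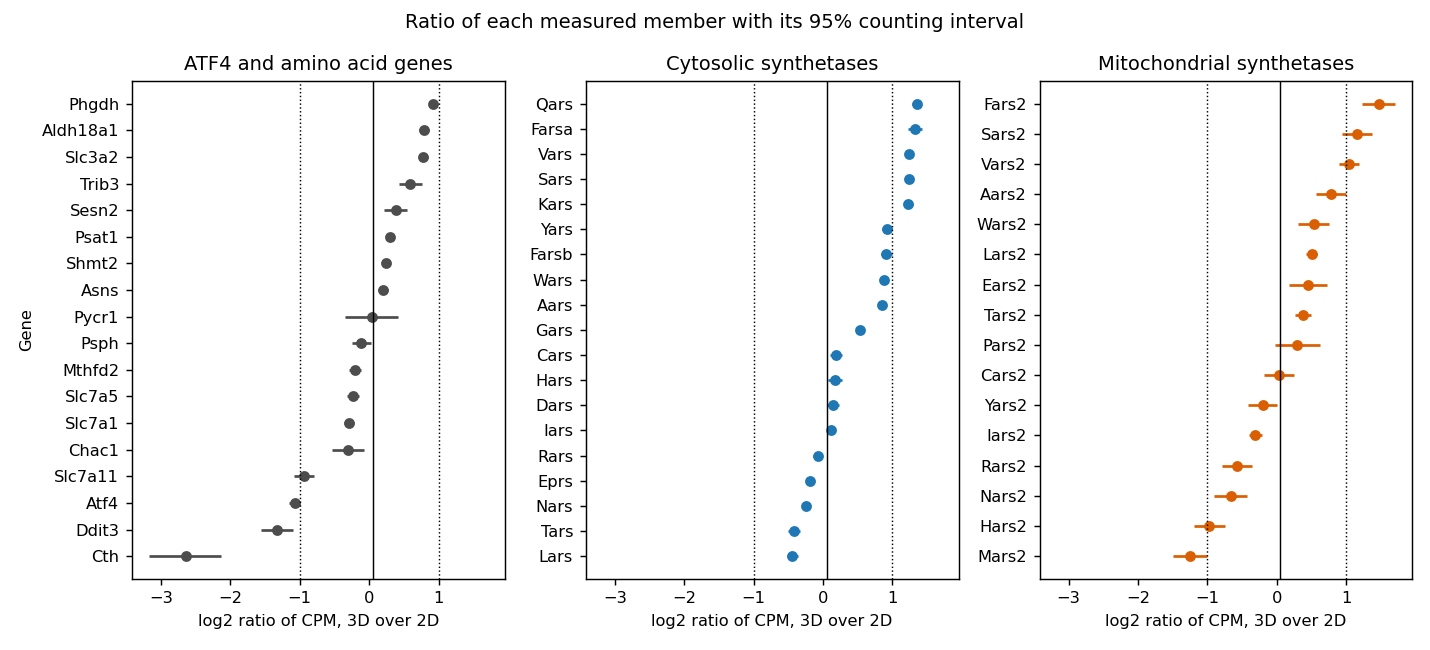
Each point is the log2 ratio of CPM (3D over 2D) of a measured member with its 95% counting interval, in 3 panels by role. The solid line is the all-gene median of 0.05 and the dotted lines mark 2-fold; Cth lies farthest left at -2.63, and no gene of the left panel reaches the right dotted line.

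Atf4 (ENSMUSG00000042406, chromosome 15, 80255184 to 80257541 of mm10) had 5361 counts in 2D and 1948 in 3D. That is 303 and 144 CPM, a level 2.11-fold lower in 3D (95% interval 1.999 to 2.219), and the interval reached just below 2-fold. Its transcript is rich in GC, a class in which most genes stood higher in 3D, and the adjusted log2 ratio was -2.41, at percentile 1.75 of all genes. Ddit3, which encodes the stress factor CHOP, had 648 and 198 counts, or 36.6 and 14.6 CPM, 2.50-fold lower (2.13 to 2.95; adjusted -1.19). The other regulators went the other way under TMM scaling. Trib3, a pseudokinase that binds ATF4, had 535 and 618 counts, or 30.3 and 45.7 CPM, 1.51-fold higher. Sesn2, a leucine sensor that restrains mTORC1, had 636 and 634 counts, which after scaling is 1.30-fold higher (1.17 to 1.46). Their adjusted log2 ratios were -0.48 and -0.56, and both ratios fell below 1 under total counts. Atf4 and Ddit3 stood below the all-gene median with and without adjustment, and Trib3 and Sesn2 stood above it without adjustment and below it with.

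Asns, the enzyme that makes asparagine and a standard ATF4 target, differed little, with 3381 and 2982 counts, or 191 and 220 CPM, 1.15-fold higher in 3D (1.10 to 1.21; adjusted -0.29). In the serine pathway the genes other than Phgdh likewise differed little before adjustment. Phgdh, the first enzyme of the pathway, had 6941 and 10023 counts, or 392 and 741 CPM, 1.89-fold higher (1.83 to 1.95). However, 47.8% of the 50-mers of its transcripts also occur in other genes, most of them in the processed pseudogene Gm7901, so its counts are uncertain. Psat1, the aminotransferase of the next step, had 7664 and 7188 counts, or 433 and 531 CPM, 1.23-fold higher. Psph, the phosphatase that releases serine, had 1065 and 752 counts, or 60.2 and 55.6 CPM, with an interval that includes 1. The mitochondrial folate enzymes that use serine parted slightly, as Shmt2 had 7052 and 6412 counts, or 399 and 474 CPM, 1.19-fold higher. Mthfd2 had 2787 and 1844 counts, or 158 and 136 CPM, 1.16-fold lower. None of these 5 genes reached 2-fold before adjustment. All 5 had adjusted log2 ratios below 0, from -0.33 for Psat1 to -1.27 for Shmt2, the only one then past 2-fold. When GC content and exon length alone were fitted, a step chosen after seeing the data, Psat1 lay at 0.34 and Phgdh at 0.01. The others stayed below 0.

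Genes of cysteine supply were the lowest of the amino acid groups. Cth, which makes cysteine from cystathionine, had 292 counts in 2D and 36 in 3D, 16.5 and 2.66 CPM, a 6.21-fold difference (4.38 to 9.04; adjusted -1.88). Cbs, the enzyme of the step before it, was not measured. Slc7a11, the cystine importer of system xc-, had 1410 and 565 counts, or 79.7 and 41.8 CPM, 1.91-fold lower (1.73 to 2.11), yet its transcript is poor in GC and the adjusted log2 ratio was 0.30. Among the 18 measured genes of the amino acid response it alone lay above 0 after adjustment. With GC content and exon length alone fitted, 6 of the 18 lay above 0 and 12 below. Chac1, which degrades glutathione, had 409 and 253 counts, or 23.1 and 18.7 CPM, 1.24-fold lower (1.05 to 1.45; adjusted -1.27).

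Proline synthesis and amino acid carriers gave no 2-fold difference before adjustment. Aldh18a1, which opens proline synthesis from glutamate, had 3161 and 4187 counts, or 179 and 309 CPM, 1.73-fold higher, and Pycr1, which closes it, had 135 and 106 counts, or 7.63 and 7.83 CPM, with a ratio interval that includes 1 (0.788 to 1.33). The heavy chain Slc3a2, shared by several carriers, had 3111 and 4086 counts, or 176 and 302 CPM, 1.72-fold higher (1.64 to 1.80). Its partner for large neutral amino acids, Slc7a5, had 2865 and 1869 counts, or 162 and 138 CPM, 1.17-fold lower (1.11 to 1.24; adjusted -1.36). Slc7a1, the carrier of arginine and lysine, had 4132 and 2587 counts, or 234 and 191 CPM, 1.22-fold lower. Before adjustment the heavy chain and its light chains Slc7a5 and Slc7a11 thus stood on opposite sides of 1. The adjusted log2 ratio of Slc3a2 was -0.27, on the same side of 0 as Slc7a5 and opposite to Slc7a11 (0.30). Among the 18 measured genes of the amino acid response, 0 were higher by the 2-fold rule and 3 (16.7%) lower, namely Atf4, Ddit3 and Cth. Over all measured genes the shares were 18.7% and 20.8%. The median of the 18 was -0.09 relative to all genes before adjustment and -0.61 after it, when 17 of 18 lay below 0. After adjustment 6 passed the 2-fold rule downward, against 10.1% of all genes lower and 10.1% higher. With GC content and exon length alone fitted, the median was -0.38, with 12 below 0 and 6 above. That fit put 5 past 2-fold downward, against 1599 of 11666 genes.

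Of the 19 cytosolic synthetase genes, 14 had a ratio above 1, against 6045 of 11673 measured genes. The cytosolic majority was lost under total counts and under reference genes, each with 9 above 1 and 10 below. By the 2-fold rule 5 (26.3%) were higher and 0 lower, against 18.7% and 20.8% of all measured genes. The relative median was 0.49. Seryl-tRNA synthetase Sars, with 8569 and 15425 counts, lay at 485 and 1140 CPM, 2.35-fold higher in 3D (2.29 to 2.42). Qars, which charges glutamine tRNA, had 3207 and 6246 counts, or 181 and 462 CPM (2.55-fold, 2.44 to 2.66). The lysine enzyme Kars had 2773 and 4978 counts, or 157 and 368 CPM (2.35-fold), and the valine enzyme Vars 6951 and 12611 counts, or 393 and 932 CPM (2.37-fold). Farsa, the catalytic subunit for phenylalanine, had 1190 and 2291 counts, or 67.3 and 169 CPM (2.52-fold, 2.34 to 2.70). Its partner subunit Farsb followed with 2061 and 2966 counts, or 117 and 219 CPM (1.88-fold, 1.78 to 1.99). All 5 genes past 2-fold fell short of it under total counts, where their log2 ratios ran from 0.63 to 0.75.

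The other cytosolic synthetases formed a graded series. Yars, for tyrosine, had 2711 and 3923 counts in the 2D and 3D libraries and was 1.89-fold higher in 3D. Wars, for tryptophan, followed with 3986 and 5628 counts (1.85-fold), and Aars, for alanine, with 4604 and 6368 (1.81-fold). These 3 genes fell just short of the 2-fold rule. The glycine enzyme Gars, with 5479 and 6088 counts, was 1.45-fold higher. Close to even stood Cars, for cysteine, with 2531 and 2210 counts (1.14-fold), and Hars, for histidine, with 1663 and 1434 (1.13-fold). Dars, for aspartate, with 2653 and 2246 counts (1.11-fold), and Iars, for isoleucine, with 4802 and 3978 (1.08-fold), were likewise slightly higher. The remaining 5 cytosolic genes had ratios below 1. Rars, for arginine, had 4003 and 2902 counts (1.06-fold lower), and Eprs, the bifunctional glutamate and proline enzyme, 7323 and 4916 (1.14-fold lower). Nars, for asparagine, had 7023 and 4550 counts (1.18-fold lower). Tars, for threonine, with 3261 and 1869 counts (1.33-fold lower), and Lars, for leucine, with 3521 and 1982 (1.36-fold lower), closed the order. Yars, Gars, Iars and Tars, among the 5 cytosolic synthetase genes found with the composite motif, spanned this order from 1.89-fold higher to 1.33-fold lower. By the 2-fold rule 0 of the 10 members with the motif differed, and of the 32 measured members with a window and no motif 7 were higher and 3 lower. Over all measured genes with a window, 28 of 243 with the motif were higher and 50 lower, and 1532 of 8478 without it were higher and 1716 lower. No statement about the motif is drawn from these counts.

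Adjustment left fewer of these differences. The adjusted log2 ratio was 0.96 for Farsa, 0.90 for Kars, 0.73 for Qars, 0.61 for Farsb and 0.06 for Sars, and that of Vars turned to -0.29. No cytosolic synthetase was 2-fold different after adjustment, against 10.1% of all genes higher and 10.1% lower. Of the list, 8 lay above 0 and 11 below, and its median was -0.24. When GC content and exon length alone were fitted, a step chosen after seeing the data, the list median was 0.32, with 14 genes above 0. That fit put 5 genes past 2-fold upward and 0 downward, against 1142 and 1599 of 11666 genes. The sign of the cytosolic median therefore turned on whether mean expression entered the fit.

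Synthetases of the multi-synthetase complex, in which several of the enzymes are held together by scaffold proteins, did not move as a unit. Among its 7 members here, Qars and Kars were over 2-fold higher, Dars and Iars near even, and Rars, Eprs and Lars below 1, with a relative median of 0.06. The 12 cytosolic genes outside it had a relative median of 0.82, and 3 of them passed 2-fold upward. After adjustment the order turned, at 0.32 inside the complex and -0.27 outside it. Of the scaffold genes, Aimp2 lay at 22.7 and 67.0 CPM, 2.95-fold higher in 3D (2.62 to 3.33; adjusted 0.63), Aimp1 was 1.41-fold higher and Eef1e1 lay at 54.4 and 49.7 CPM with an interval that includes 1. The methionine enzyme Mars1, also of the complex, lay at 172 and 305 CPM, 1.77-fold higher.

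Unadjusted log2 ratios of mitochondrial synthetase genes ran from -1.25 to 1.47, against -0.44 to 1.35 for cytosolic ones. After adjustment the ranges were closer, -0.76 to 1.31 against -0.66 to 0.96. The mitochondrial genes were far lower in level. Compared per length, in transcripts per 1000000 (TPM), their median was 17.0 in 2D against 149 for the cytosolic genes, and 14.0 against 128 in 3D. The most abundant mitochondrial gene in 2D was Iars2 with 65.6 TPM, just above the least abundant cytosolic gene, Farsa, with 59.6 TPM. The highest synthetase levels were those of Gars (399 TPM) and Sars (379 TPM) in 2D and of Sars (511 TPM) and Vars (383 TPM) in 3D. Levels are ordered by TPM within a library. Between libraries TPM is read against the ratio of the medians, since the median of all measured genes was 27.1 TPM in 2D and 14.7 in 3D.

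**Figure D2:**
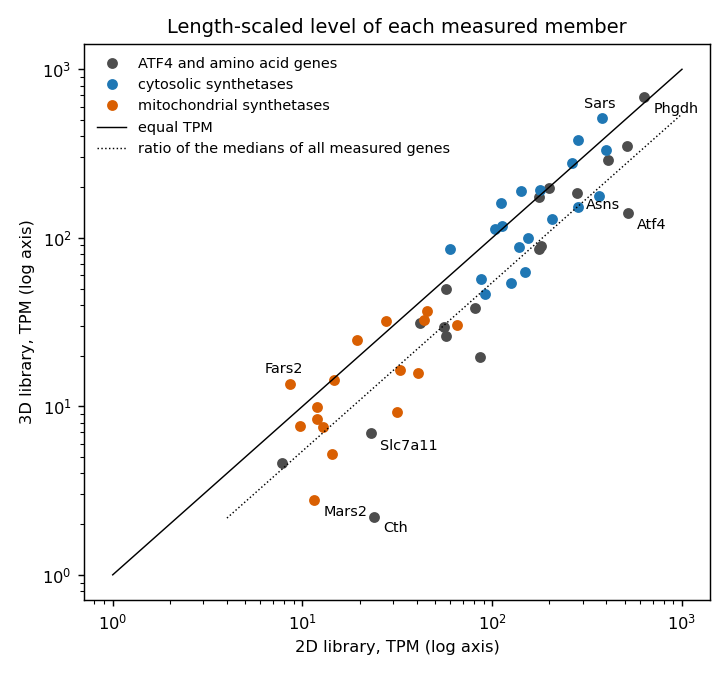
Each point is a measured member at its TPM in 2D (x) and the 3D library (y), both on log axes, coloured by role. The solid line marks equal TPM and the dotted line the ratio of the medians of all measured genes; mitochondrial synthetases sit lower left and cytosolic ones upper right, while Atf4 (517 and 141 TPM) and Cth (23.8 and 2.20 TPM) lie below the dotted line.

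In the mitochondrial group, 10 of 16 genes had a ratio above 1, against 6045 of 11673 measured genes. Total counts and reference genes each gave 4 of the 16 above 1 and 12 below. By the 2-fold rule 3 (18.8%) were higher and 1 (6.25%) lower, against 18.7% and 20.8% of all measured genes. The relative median was 0.28. Fars2, for mitochondrial phenylalanine, had 217 and 460 counts, or 12.3 and 34.0 CPM, and was 2.77-fold higher in 3D (2.35 to 3.27; adjusted 1.31). Sars2, for serine, had 282 and 482 counts, or 15.9 and 35.6 CPM (2.23-fold, 1.92 to 2.60). Vars2, for valine, had 659 and 1033 counts, or 37.3 and 76.3 CPM (2.05-fold, 1.86 to 2.26), and both intervals reached below 2-fold. Their adjusted log2 ratios were 0.28 and 0.17. Fars2 (8.85%) and Vars2 (6.45%) share 50-mers with other genes. Without the members that share over 5%, 1 mitochondrial gene was 2-fold higher. Mars2, for mitochondrial methionine, had 573 and 184 counts, or 32.4 and 13.6 CPM, and was 2.38-fold lower (2.01 to 2.83), but its transcript has the lowest GC content of all members and its adjusted log2 ratio was 0.38. With both libraries thinned its log2 ratio was -0.98, which no longer reached 2-fold. Hars2 had 596 and 232 counts, or 33.7 and 17.1 CPM, 1.97-fold lower (1.69 to 2.30; adjusted -0.76).

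Of the rest, 5 were moderately higher in 3D. Aars2, for alanine, had 306 and 403 counts (1.72-fold), and Wars2, for tryptophan, 312 and 345 (1.45-fold). Lars2, for leucine, had 2200 and 2382 counts (1.42-fold), Ears2, for glutamate, 221 and 231 (1.37-fold), and Tars2, for threonine, 1326 and 1317 (1.30-fold). A further 3 were lower. Nars2, for asparagine, had 441 and 213 counts (1.58-fold lower) and Rars2, for arginine, 496 and 255 (1.49-fold lower). Iars2, for isoleucine, had 2565 and 1584 counts (1.24-fold lower), and 22.7% of its 50-mers also occur in other genes, mainly Rab3gap2 on the opposite strand. Pars2, Cars2 and Yars2, for proline, cysteine and tyrosine, had intervals that include 1, with 163 and 153, 410 and 321 and 455 and 302 counts in turn. After adjustment 13 of 16 lay above 0, Fars2 and Wars2 passed 2-fold upward and none downward, and the median was 0.19. The same rule on adjusted ratios called 10.1% of all genes higher and 10.1% lower. Of the factors that complete mitochondrial charging, Gatb of the amidotransferase that makes glutaminyl-tRNA was 1.49-fold higher, while its partners Gatc (1.44-fold) and Qrsl1 (1.29-fold) and the formyltransferase Mtfmt (1.63-fold) were lower.

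**Figure D3:**
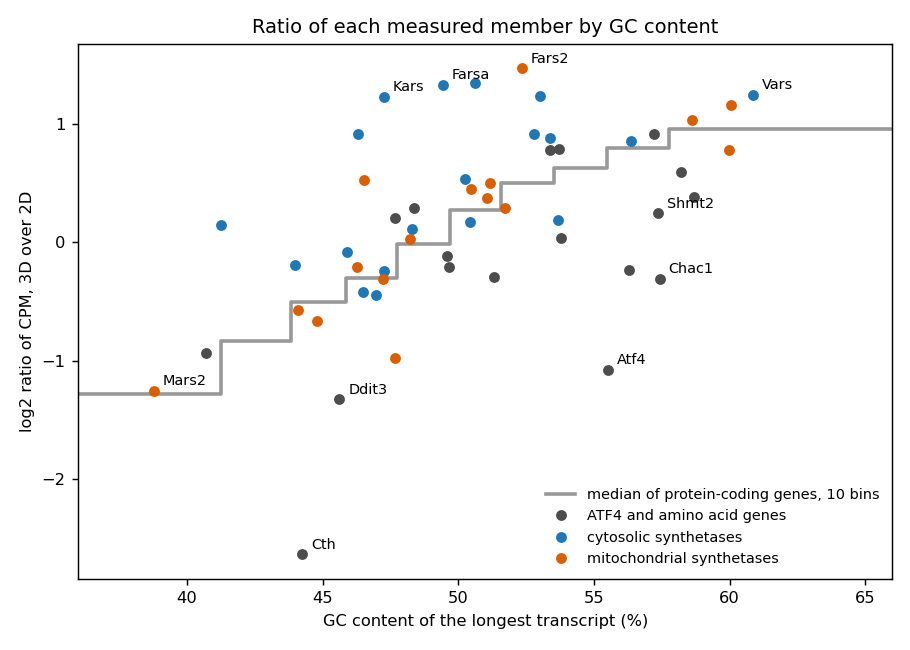
Log2 ratio of CPM (3D over 2D) of each measured member against the GC content of its longest transcript, coloured by role. The grey steps are medians of protein-coding genes over 10 bins of GC content, from -1.28 to 0.96; most mitochondrial synthetases lie near the steps, whereas Kars, Farsa and Fars2 lie above them and Atf4, Cth, Ddit3 and Chac1 below.

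GC content ordered the members much as it ordered other genes. Across genes within this single pair of libraries, Spearman's rho between log2 ratio and GC content was 0.83 for the 16 mitochondrial synthetases, 0.57 for the 19 cytosolic ones and 0.46 for the 18 measured amino acid response genes, against 0.62 for 10538 protein-coding genes. These points share the same 2 libraries and are not independent replicates. Set against the median of protein-coding genes of the same GC bin, 15 of 19 cytosolic synthetases lay above it, with a median difference of 0.29, and 10 of 16 mitochondrial ones, with 0.06. Of the amino acid response genes, 6 lay above and 12 below, with -0.46. Atf4 lay 1.87 below its bin on the log2 scale (difference -1.87) and Cth 2.13 below (-2.13), while Kars lay 1.53 above and Dars, whose own ratio was near even, 1.43 above.

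Cytosolic and mitochondrial enzymes for the same amino acid could be set side by side in 14 pairs, Fars2 serving for both phenylalanine subunits. In each pair the cytosolic gene had the higher TPM in both libraries, from 2.89-fold to 25.5-fold in 2D and from 1.67-fold to 34.2-fold in 3D. The cytosolic gene had the higher ratio in 10 pairs and the mitochondrial gene in 4. In 10 pairs, not the same ones, the 2 counting intervals did not overlap. These included the Farsb, Lars and Tars pairs, where the mitochondrial gene was higher. Intervals overlapped in the Aars, Cars and Sars pairs, where the cytosolic gene was higher, and in the Farsa pair. Within these 14 pairs the widest gaps in favour of the cytosolic gene were Hars over Hars2 (1.15 on the log2 scale) and Yars over Yars2 (1.12). The widest in favour of the mitochondrial gene were Lars2 over Lars (-0.94) and Tars2 over Tars (-0.79). Hars and Hars2 overlap on opposite strands, and the sources used here do not state whether counting used strand. Mars1, which was not among the 54 genes, was left out of the pairs. Its log2 ratio of 0.83 against -1.25 for Mars2 is a wider gap than any of the 14. The median gap was 0.18 before adjustment and -0.41 after it, when the cytosolic gene kept the higher value only in the Hars and Yars pairs. List medians gave the same pattern, with a difference of 0.20 before adjustment, -0.43 after it and 0.12 with GC content and exon length alone. A lead of cytosolic over mitochondrial synthetases was thus not stable to the adjustment. A range built from the median bounds of the single genes' counting intervals ran from -0.05 to 0.52 around the unadjusted difference. It is not a counting interval of the difference of medians, which was not computed, so nothing is drawn from its including 0.

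**Figure D4:**
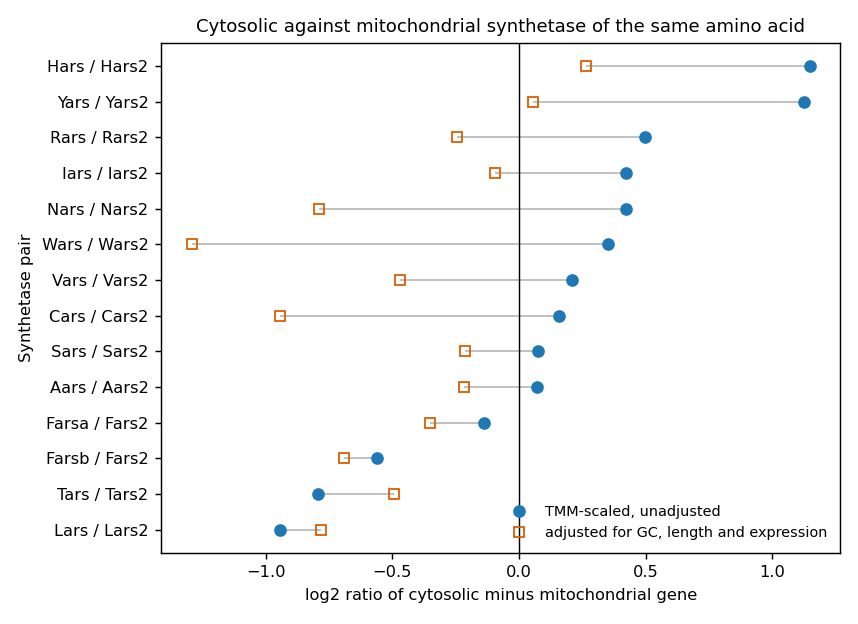
For each of 14 pairs the log2 ratio (3D over 2D) of the cytosolic gene minus that of the mitochondrial gene is shown unadjusted (filled circles) and adjusted for mean expression, GC content and exon length (open squares). Circles lie right of 0 in 10 pairs and squares in 2, Hars with Hars2 and Yars with Yars2.

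The wider pathway was read from 53 further genes, of which 49 were measured. By the 2-fold rule 6 were higher in 3D and 5 lower, again a smaller share than over all genes. Among 9 genes that set eIF2 phosphorylation, 1 (11.1%) was higher and 2 (22.2%) lower, against 18.7% and 20.8% of all measured genes. Eif2ak2, the kinase PKR that responds to double-stranded RNA, lay at 39.8 and 8.65 CPM, 4.60-fold lower (3.78 to 5.65; adjusted -1.46). Impact, an inhibitor of GCN2, had 866 and 158 counts and was 4.19-fold lower (adjusted -1.19). Gcn1, the activator of GCN2 that IMPACT binds, lay at 207 and 417 CPM, 2.02-fold higher (1.94 to 2.10; adjusted 0.19). Eif2ak4, which encodes GCN2, was 1.93-fold lower (1.71 to 2.17; adjusted -0.93), Eif2ak3, which encodes PERK, 1.24-fold lower, and Eif2ak1, the heme-regulated kinase, 1.42-fold higher. The phosphatase subunit Ppp1r15b was 1.79-fold lower, and its stress-induced relative Ppp1r15a 1.34-fold higher.

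Other ATF4 targets and partners lay on both sides, with 3 of 19 measured genes (15.8%) higher and 3 (15.8%) lower. Both shares lay under those of all measured genes, 18.7% higher and 20.8% lower. Eif4ebp1, a repressor of cap-dependent translation, lay at 129 and 488 CPM, 3.78-fold higher (3.60 to 3.96; adjusted 1.19). The bZIP factors Atf5 and Cebpb were 3.58-fold and 6.23-fold higher (adjusted 0.55 and 1.24). Cebpg, a C/EBP protein that forms dimers with ATF4, lay at 50.2 and 15.4 CPM, 3.26-fold lower (2.80 to 3.81; adjusted -0.95). The stress gene Nupr1 was 2.58-fold lower (adjusted -1.58) and the alanine aminotransferase gene Gpt2 2.02-fold lower (1.82 to 2.23; adjusted -1.31). Fgf21, Slc7a3 and Vldlr were not measured, with at most 3 counts. After adjustment 15 of the 19 lay below 0. In the list of other folate, serine and proline genes, only Mthfd1l, a mitochondrial formate producer, passed 2-fold, at 155 and 453 CPM (2.93-fold higher, 2.80 to 3.07; adjusted 0.69).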

How the data were processed

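RNA-seq libraries of RAW264.7 cells, 1 per culture method, were compared. The authors deposited whole-number read counts for each Ensembl gene. The submitters' processing notes name Trimmomatic, HISAT2, HTSeq and mm10. Their versions and settings, and whether counting used strand, are not stated in the sources used here. GENCODE M21 (mm10) gave symbols, positions, exon lengths and GC content for 99.7% of identifiers. Ddit3 was taken by the identifier present in the counts. TMM factors (edgeR 4.0.16, R 4.3.3) were 1.231 for the 2D and 0.813 for the 3D library. Ratios have exact conditional (Clopper-Pearson) 95% intervals, and genes at 0 counts were set to a floor of 3 counts (0.209 and 0.18 counts per 1000000 total counts). Genes with neither library above that floor got no ratio. Adjusted ratios are residuals of natural cubic splines with 4 degrees of freedom (patsy 1.0.2) for mean expression, GC content and exon length. The code was tested on simulated data. Alternatives were DESeq2 1.42.0 size factors, total counts, upper-quartile and reference-gene scaling, other filters, a pseudocount, another fold rule, interval bounds, thinned counts, protein-coding genes only and adjustment. The members and lists were chosen with earlier results of these data known. All members were named, with pathway genes at least 2-fold different (up to 4 a list) and genes that complete a list. Nupr1 and Gpt2, past 2-fold beyond those 4, were named after their values were seen. The sequence of 1 further matched promoter is not reported here.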

Additional observations from a re-analysis of the deposited data

How the results depend on the processing

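No replicate could be left out with 1 library per culture method, and depth limits low genes such as Cbs (8 and 9 counts), Cth (36 in 3D) and Pycr1 (135 and 106). No paired analysis was possible because each group has 1 library and the labels give no replicate numbers. Total counts gave 0 members at least 2-fold higher and 10 lower, with 657 and 4292 of all genes, and reference genes gave 0 and 13 members, with 475 and 4698 of all genes. Under total counts the higher genes made up 13.3% of all calls and under reference genes 9.2%, against 47.3% under TMM. Without the filter 3939 of all genes were lower, the relative cytosolic median was 0.64, and the amino acid response median turned from -0.09 to 0.14, since the all-gene median fell and Cbs entered. A mean of at least 5 CPM gave a cytosolic median of 0.41. A 1.5-fold rule gave 17 members higher and 7 lower, with 3701 of all genes higher. Where the interval bound itself had to pass 2-fold, 6 members were higher and 3 lower, with 1533 and 1680 of all genes. Adjustment for mean expression, GC content and exon length left 2 members higher, turned the cytosolic median to -0.24 and its difference from the mitochondrial one to -0.43, moved the amino acid response median to -0.61 and called 1176 and 1183 of all genes. Fitting GC content and exon length only gave 0.32 for the cytosolic and -0.38 for the amino acid response median, with 1142 and 1599 of all genes. Mars2 turned to 0.38 and 0.25 under these fits, and Vars to -0.29 under the first; beyond the terms added, the cause was not tested. The fit with fewer terms and the count without 10 members that share over 5% of their 50-mers with other genes were chosen after seeing the data. The latter left 6 members higher and 4 lower. With both libraries thinned 4 members were again lower, but Mars2 (-0.98) dropped out and Slc7a11 (-1.06) entered.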

Other observations

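Several members share sequence with another counted gene. For Phgdh the largest share of 50-mers was with the processed pseudogene Gm7901, which had 604 counts in 2D and 901 in 3D. Rab3gap2, which overlaps Iars2 on the opposite strand, had 3924 and 3473 counts. Exosc6 overlaps 14.3% of the exon length of Aars on the same strand and had 0 counts in both libraries. Cct6a overlaps Psph on the opposite strand and had 3746 and 2713 counts. The part of these overlaps in the ratios was not tested.

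Sesn1, a relative of Sesn2 that is best known as a p53 target, lay at 25.5 and 13.6 CPM, 1.88-fold lower in 3D (1.58 to 2.24; adjusted -0.89), on the other side of 1 from Sesn2. Tarsl2, a further cytosolic threonine enzyme, was 1.84-fold lower (1.48 to 2.29), as Tars was. Aimp1, a scaffold of the synthetase complex with a transcript poor in GC, was 1.41-fold higher (1.31 to 1.52) with an adjusted log2 ratio of 1.62, at percentile 97.0.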
